A study of Bos taurus with 18 samples.

Results

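The end points compared here are muscle cells after 72 h of differentiation with and without serum, 3 libraries of each. SFDM is the study's serum-free medium for differentiation, built on DMEM/F-12, and DM is differentiation medium with 2% fetal bovine serum (FBS). The libraries were taken by their labels, and every gene identifier that passed an expression filter over the series entered the comparison, 14637 of 27607. The 6 libraries are part of a series of 18 libraries of poly(A) RNA from satellite cells of Belgian Blue cattle, with 3 biological replicates, A, B and C, in each of 6 media. Cells for DM were grown with 20% FBS (GM) and cells for SFDM in serum-free growth medium (SFGM), so the end points differ in the history of the cells as well as in the medium of the last 72 h. GM and SFGM were sampled at 0 h. At 72 h the series also holds cells from SFGM in the unsupplemented serum-free base (SFB) and in the serum-free differentiation medium on a DMEM base (DMEM). What the letters stand for is not stated, and p-values refer to the spread among these libraries, which may be technical.

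Satellite cells are the resident stem cells of skeletal muscle. In culture they proliferate as myoblasts, and on differentiation they leave the cell cycle, fuse into multinucleated myotubes and build the contractile apparatus. Lowering serum is the usual trigger in culture, and a serum-free medium has to bring about the same change without that drop. The series asks whether such a medium lets bovine cells differentiate for cultured meat. The deposited identifiers are not paired with gene names here, so myogenic and other marker genes could not be looked up, and the labelled cell type was not checked against its markers. Genes are described by their behaviour, with 4 identifiers as examples. RNA came from whole cultures, where fewer cells of a type and less RNA per cell cannot be told apart.

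The DM libraries held 22494116 to 25669196 counts and the SFDM libraries 16162525 to 27894431, with the lowest total of the series in SFDM replicate A. The distance between 2 libraries, as the root mean square of log2 differences over the tested genes, was 0.313 to 0.475 within DM, where replicate C lay farthest from the others, and 0.341 to 0.429 within SFDM. Between the end points it was 0.880 to 0.954 in the 9 pairs of libraries, so the groups did not overlap. The gap at 0 h, between GM and SFGM, was 0.741 to 0.778. From start to end the serum-based cultures moved farther, by 1.48 to 1.55 from GM to DM, than the serum-free cultures, by 1.20 to 1.24 from SFGM to SFDM. The end points were thus nearer to each other than either was to its own start.

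SFDM and DM differed in a large share of the transcriptome, mostly by less than 2-fold. Of the 14637 genes tested, 3179 were higher in SFDM and 3474 lower, 45.5% together, by edgeR's quasi-likelihood test with a Benjamini-Hochberg adjusted p under 0.05. The higher genes were 21.7% of those tested and the lower ones 23.7%. Of the 6653 differences 3035 were under 1.5-fold and 1533 between 1.5-fold and 2-fold. The 2085 that reached 2-fold, 14.2% of the genes tested, were made up of 1122 higher (7.67%) and 963 lower (6.58%) in SFDM. Differences of 4-fold to 8-fold were found for 217 higher and 155 lower genes, and those of 8-fold or more for 172 and 140. Higher genes were 47.8% of the calls, but 51.3% with RLE scaling, so the slight excess of lower genes turned with the scaling. The median log2 difference over all genes was -0.03.

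A difference was also bounded for many genes. For 6372 genes (43.5%) the 95% confidence interval of the log2 difference lay wholly within 1.5-fold in either direction. Among the 9269 genes with a mean of at least 10 CPM, the count rate scaled to library size, over the 18 libraries, 5567 (60.1%) were bounded in this way, and 576 (6.21%) had an interval wholly beyond 2-fold. Of the 7984 genes that did not pass the test, 4755 had an interval within 1.5-fold. For the other genes that did not pass, these libraries do not exclude a difference of 1.5-fold.

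**Figure D1:**
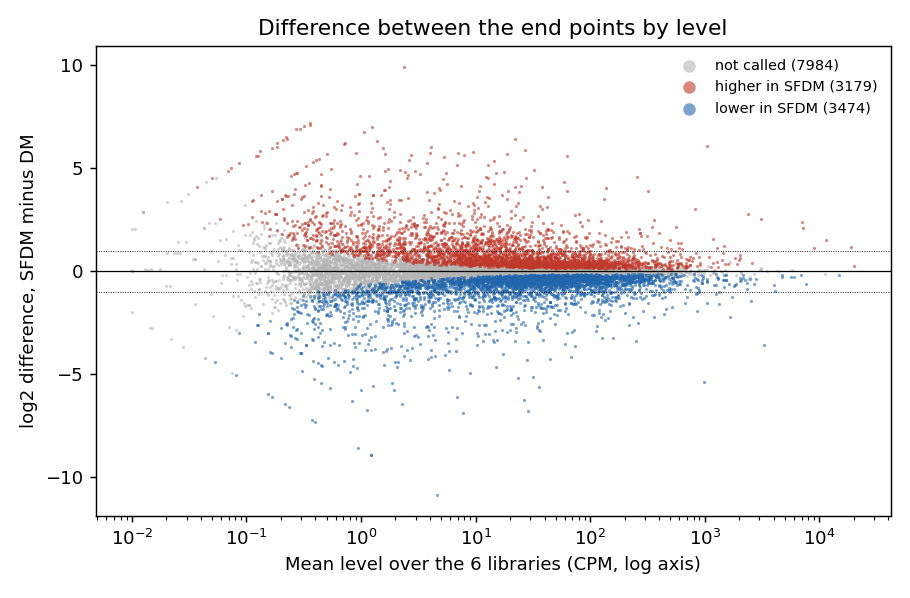
Each point is a gene, with its mean level over the 3 SFDM and 3 DM libraries (CPM, log axis) against the fitted log2 difference, SFDM minus DM. Colours mark 3179 genes called higher, 3474 called lower and 7984 not called, and dotted lines mark 2-fold; most calls lie inside those lines, and called differences of at least 2-fold are found at all levels, for 27.4% of genes below 1 CPM, 7.69% between 100 and 1000 CPM and, above 1000 CPM, for 12 higher and 4 lower genes of 89 (by the mean over all 18 libraries).

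The share of genes called rose with the level, along with the precision of the estimate. Below 1 CPM 29.9% of 1804 genes were called, with a median standard error of 0.465 on the log2 scale, and between 10 and 100 CPM 47.4% of 7217 genes, with a median standard error of 0.110. Of the 89 genes above 1000 CPM, 31 were higher and 37 lower, 76.4% in all. The median size of the difference, whether called or not, was 0.75 log2 units below 1 CPM, 0.26 between 10 and 100 CPM, and 0.41 above 1000 CPM. Genes above 1000 CPM thus differed more than genes of medium level although their errors were smaller. The 2-fold differences among them were uneven, with 12 higher and 4 lower in SFDM.

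The genes with the most counts took up a larger share of the counts in SFDM than in DM. The 10 genes with the most counts took up 13.7%, 13.3% and 12.9% of the counts in SFDM replicates A, B and C, and 9.37%, 9.04% and 9.99% in DM. Every SFDM library was above every DM library, with a mean of 13.3% ± 0.377 against 9.47% ± 0.486 (SD, n = 3, exact two-sided permutation p = 0.1, the smallest that 3 against 3 libraries allow). For the 100 genes with the most counts the shares were 30.4% ± 0.519 and 27.8% ± 0.924 (SD, n = 3, exact permutation p = 0.1). The number of genes with at least 1 CPM was 12707, 12711 and 12639 in SFDM and 12671, 12604 and 12727 in DM. These ranges overlapped (exact permutation p = 0.7). At a limit of 5 CPM they did not, with 10414 to 10508 genes in SFDM and 10308 to 10405 in DM (exact permutation p = 0.1). The margin was narrow, at 10414 in SFDM replicate C against 10405 in DM replicate C. For these numbers CPM was scaled to the total counts alone, and whether the margin holds with another scaling was not tested. Of the 10 genes with the highest mean level in each end point 7 were shared, and of the 100 highest 80 were shared, against 8 and 86 between the growth media.

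The genes with the most counts fell into 2 main kinds. A limit of 5000 CPM in either end point, chosen after the levels were seen, took 18 identifiers, of which 7 were higher in SFDM, 9 lower and 2 not called. Counts also grow with transcript length, so their order is not an order of transcript numbers. The first kind were 9 identifiers that had risen at least 4-fold from the start in both end points, 4.75-fold to 116-fold in DM over GM and 4.44-fold to 149-fold in SFDM over SFGM. Their log2 differences between the end points were small beside those rises, from -0.95 to 0.27, with 1 higher in SFDM, 6 lower and 2 not called. One of them stood at 22923.2, 21927.3 and 21520.2 CPM in SFDM and at 17438.5, 17727.8 and 19955.4 CPM in DM, from means of 1422.2 CPM in SFGM and 975.6 CPM in GM. Its end-point levels did not overlap but lay only 1.20-fold apart.

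The second kind were 6 identifiers at least 2-fold higher in SFDM, with log2 differences of 1.13 to 2.52. They were already high in both growth media. In DM their levels were 0.112 to 1.02 times those in GM, and in SFDM 0.622 to 1.66 times those in SFGM. Together they made up 8.265%, 8.105% and 7.839% of the counts in SFDM and 2.727%, 2.695% and 2.881% in DM. They were chosen for their difference between these libraries, so the shares are a description. The identifier with the most counts in SFDM is one of them, at 25944.5, 26396.7 and 25822.3 CPM there against 11366.6, 11189.3 and 11709.4 CPM in DM, and at a mean of 11168.6 CPM in GM. The widest gap among the 6 was 5.74-fold, for an identifier that stood at 8277.8 ± 44.2 CPM in GM and 8560.7 ± 294 in SFGM and ended at 927.6 ± 45.2 in DM and 5326.5 ± 240 in SFDM (SD, n = 3).

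One of the 18 went far in the other direction. It stood at 6472.2, 6042.4 and 5839.6 CPM in DM and at 528.2, 500.1 and 520.2 CPM in SFDM, 11.9-fold lower (log2 difference -3.57 ± 0.056, SE, edgeR adjusted p = 4.29e-17). Its mean was 618.1 CPM in GM, 874.9 in SFGM, 789.8 in SFB and 5123.5 in DMEM. SFDM and SFB thus lay near the growth media, while the DMEM-based version of SFDM lay near DM. This identifier was singled out after its values were seen.

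**Figure D2:**
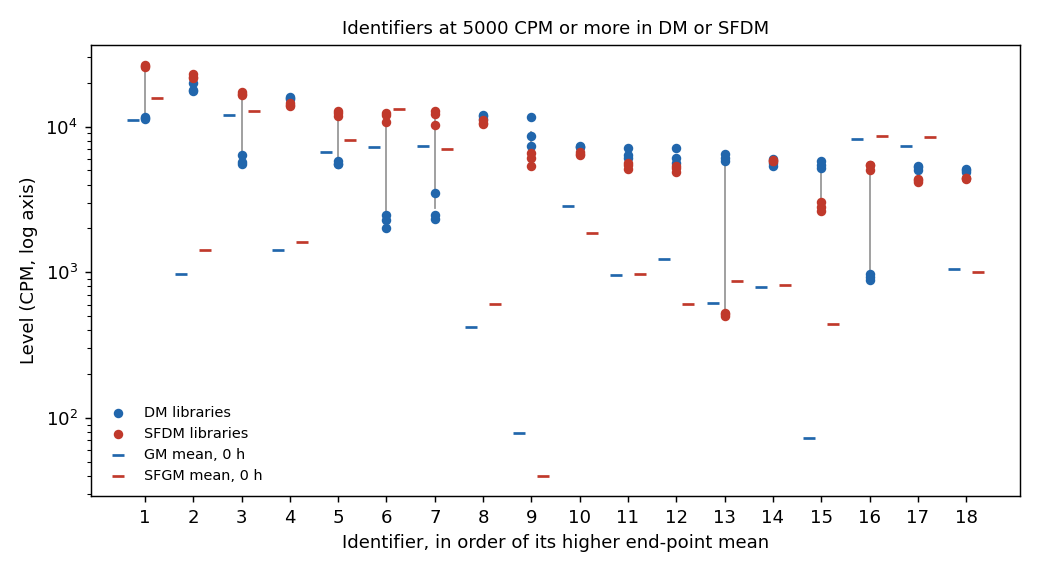
Levels (CPM, log axis) of the 18 identifiers with a mean of at least 5000 CPM in DM or SFDM, in order of the higher mean. Points are libraries of DM (blue) and SFDM (red) and dashes are the means of their growth media at 0 h; 9 identifiers rose at least 4-fold in both end points and ended within 2-fold of each other, 6 are at least 2-fold higher in SFDM, and the identifier at position 13 is 11.9-fold lower.

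The 4 identifiers named here have the largest differences in each direction among 4581 that passed the test, averaged 10 CPM or more in the higher end point and showed no overlap between the libraries. Non-overlap alone is common in these data, at 51.4% of the genes tested (24.7% with SFDM above and 26.7% with it below), and is part of the rule that chose the 4.

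ENSBTAG00000053649 stood at 50.9, 42.7 and 36.2 CPM in SFDM replicates A, B and C and at 0.485, 0.462 and 0.537 CPM in DM. The DM levels rest on 12, 10 and 12 counts. It was 86.4-fold higher in SFDM, a log2 difference of 6.43 ± 0.28 (SE, edgeR adjusted p = 8.03e-12). Its mean was 23.5 ± 4.18 CPM in GM and 51.2 ± 0.276 in SFGM, 44.9 ± 11.3 in SFB and 93.5 ± 19.0 in DMEM (SD, n = 3). DM is the one medium of the 6 in which the identifier was below 1 CPM. Between SFGM and SFDM its log2 difference was -0.25 ± 0.17 (SE) and did not pass the test (edgeR adjusted p = 0.229).

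ENSBTAG00000017071 stood at 1817, 2048 and 2266 CPM in SFDM and at 33.0, 32.2 and 24.9 CPM in DM. It was 68.1-fold higher in SFDM, a log2 difference of 6.09 ± 0.15 (SE, edgeR adjusted p = 6.11e-15). Here the 2 cultures moved apart in both directions: from 350.2 ± 36.0 CPM in GM the level fell 11.7-fold in DM, and from 235.6 ± 21.8 CPM in SFGM it rose 8.67-fold in SFDM (edgeR adjusted p = 1.75e-13 and 1.06e-12). SFB, at 1663 ± 215 CPM, and DMEM, at 1112 ± 61.0, were also far above DM.

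ENSBTAG00000012034 stood at 0.129, 0.186 and 0.0482 CPM in SFDM, from 2, 5 and 1 counts, and at 14.9, 12.7 and 18.9 CPM in DM. The groups were far apart, 118-fold by the fitted log2 difference of -6.88 ± 0.33 (SE, edgeR adjusted p = 2.39e-11), whose size rests on 8 counts in SFDM. Its mean was 0.106 ± 0.0627 CPM in GM, 0.348 ± 0.108 in SFGM, 0.111 ± 0.0618 in SFB and 0.143 ± 0.0648 in DMEM (SD, n = 3). DM was therefore the one group of the 6 with more than 1 CPM.

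ENSBTAG00000015402 stood at 0.323, 0.446 and 0.771 CPM in SFDM, from 5, 12 and 16 counts, and at 52.0, 56.5 and 63.6 CPM in DM. It was 109-fold lower in SFDM, a log2 difference of -6.77 ± 0.26 (SE, edgeR adjusted p = 2.13e-12). From 5.682 ± 1.503 CPM in GM it rose 10.1-fold in DM, and from 3.38 ± 0.956 CPM in SFGM it fell 6.40-fold in SFDM (edgeR adjusted p = 6.07e-11 and 8.69e-07). The level in SFB was 0.862 ± 0.0661 CPM, near that in SFDM, and in DMEM it was 5.72 ± 0.707 CPM, near that in GM.

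**Figure D3:**
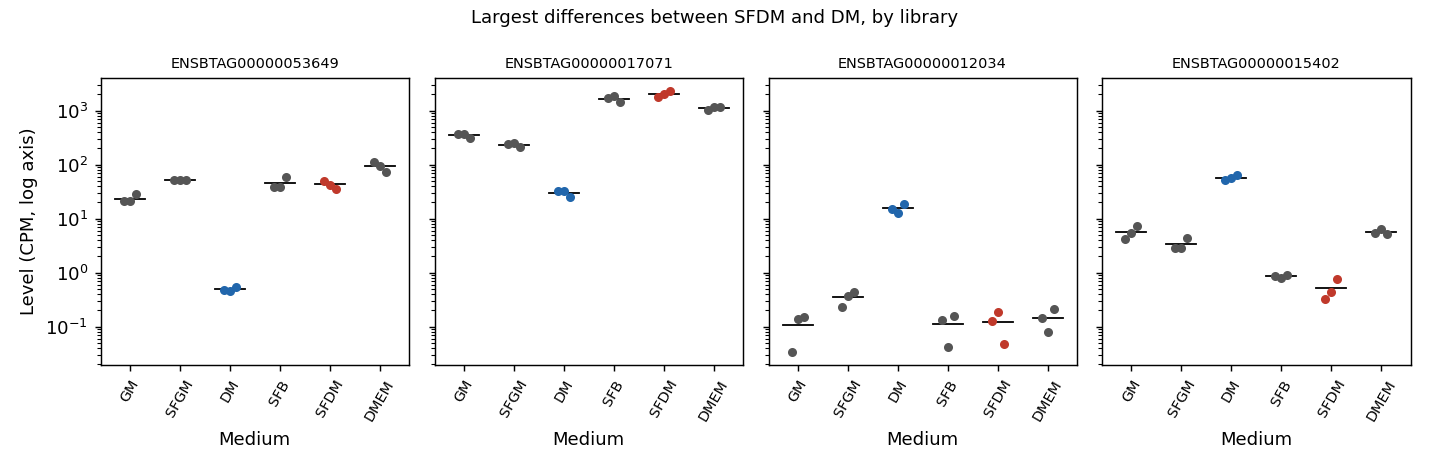
Level (CPM, log axis) of the 4 named identifiers in each library of the 6 media; points are libraries, bars are means of 3, with DM in blue and SFDM in red. DM is the lowest of the 6 media in the first 2 panels and the highest in the last 2. The other 5 media are themselves widely spread for ENSBTAG00000017071, with means from 235.6 CPM in SFGM to 2044 in SFDM. The same holds for ENSBTAG00000015402, with means from 0.513 CPM in SFDM to 5.72 in DMEM.

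A switch between the end points was rare. By mean levels, 14 identifiers were below 1 CPM in DM and at least 10 CPM in SFDM, and 10 were the other way round. The 14 reached 10.5 to 53.1 CPM in SFDM. At the start 8 of them had at least 1 CPM in GM and 10 in SFGM, and 11 had at least 10 CPM in SFB but 5 in DMEM. The 10 reached 10.1 to 57.4 CPM in DM, and 9 of them were below 1 CPM in SFB and 5 in DMEM. Identifiers with 0 counts in every library of one end point that averaged 1 CPM or more in the other numbered 1 in SFDM and 4 in DM.

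The median level of the genes that differed at least 2-fold had moved more from the start in DM than in SFDM. The 963 genes lower in SFDM had a median of 2.28 CPM in SFGM and 2.09 CPM in SFDM, but 2.38 CPM in GM and 7.40 CPM in DM. Their median log2 change was -0.03 from SFGM to SFDM and 1.51 from GM to DM. The 1122 genes higher in SFDM went from a median of 3.71 CPM in GM to 1.96 in DM, a median log2 change of -1.02, and from 5.33 CPM in SFGM to 7.50 in SFDM, a median log2 change of 0.35. Over all genes tested these medians were -0.03 for DM against GM and -0.06 for SFDM against SFGM. In a median of signed changes rises and falls can cancel, so it does not measure how far single genes moved. Over the 9269 genes with at least 10 CPM the root mean square log2 change was also larger in DM. It was 1.42 for DM against GM and 1.08 for SFDM against SFGM. The comparisons share the DM or the SFDM libraries with the one that chose the genes, which favours opposite signs, so the values are set side by side without a test.

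In shares of the counts, the 963 genes made up 2.82%, 2.83% and 2.87% in the 3 GM libraries, 2.84% in each SFGM library, and 2.28%, 2.29% and 2.27% in SFDM. In DM they made up 7.02%, 6.91% and 7.04%, so of the end points DM and SFDM only DM left the level of the growth media by a wide margin. Among the other 72 h media the mean share was 4.97% in DMEM, also above the growth media, and 2.40% in SFB. The 1122 genes made up 10.98% ± 0.0455 in GM, 12.02% ± 0.210 in SFGM and 13.1% ± 0.181 in SFDM, against 4.32% ± 0.0877 in DM (SD, n = 3). Their mean share was 16.01% in SFB and 11.88% in DMEM. These shares describe genes chosen on the same libraries.

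Of the other serum-free media at 72 h, SFB lay nearer to SFDM than to DM for most of these genes. DMEM did so for shares only somewhat above that over all genes. By log2(mean CPM + 0.5), SFB was nearer to SFDM than to DM for 803 of the 963 lower genes (83.4%) and for 888 of the 1122 higher genes (79.1%), where the share over all genes tested was 66.7%. For DMEM the shares were 56.8% and 59.2%, against 52.7% over all genes. Among the lower genes, an excess of nearness to SFDM was not particular to the serum-free media at 72 h. GM at 0 h was nearer to SFDM for 66.6% of the lower and 47.9% of the higher genes, against 55.6% over all genes. For SFGM these shares were 73.4% and 59.0%, against 58.9%. Among the higher genes the share for GM was thus below that over all genes, and the share for SFGM was near it. Over all tested genes the distance of DMEM libraries was 0.728 to 0.842 from SFDM and 0.891 to 1.02 from DM, and that of SFB libraries 0.619 to 0.744 from SFDM and 0.977 to 1.12 from DM. The median level of the 963 genes was 2.29 CPM in SFB and 3.70 CPM in DMEM, and that of the 1122 genes 6.65 CPM in SFB and 4.81 CPM in DMEM. The median log2 difference from DM of the lower genes was -1.56 in SFDM, -1.49 in SFB and -0.92 in DMEM, and of the higher genes 1.66, 1.70 and 1.25. All 3 share the DM libraries.

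**Figure D4:**
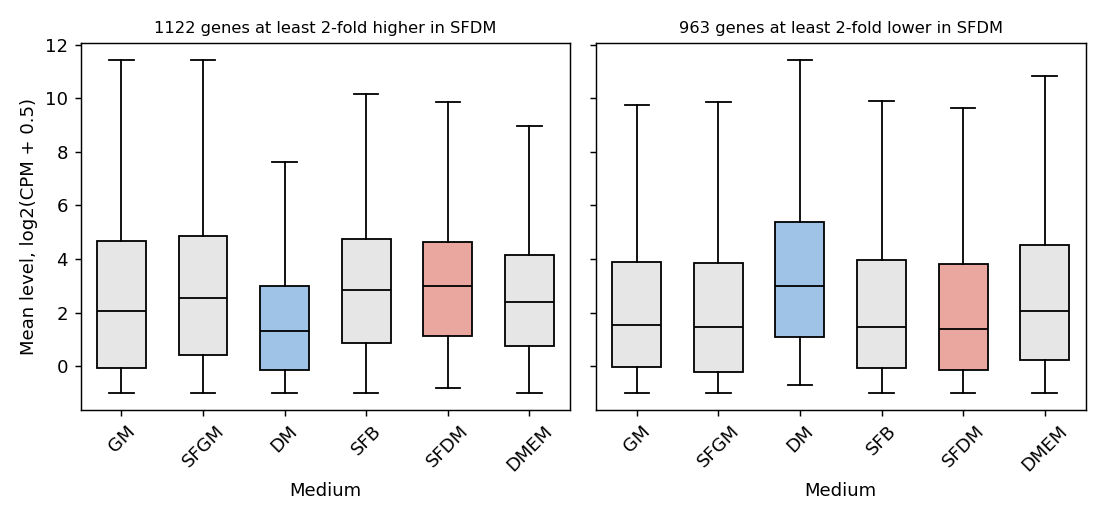
Mean levels, as log2(CPM + 0.5), of the 1122 genes at least 2-fold higher (left) and the 963 at least 2-fold lower (right) in SFDM than in DM, in each of the 6 media. Boxes show the median and quartiles over genes and whiskers the range within 1.5 times the box; DM (blue) has the lowest median on the left and the highest on the right.

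Because the cells came from different growth media, the difference at 72 h was set against the difference at 0 h, SFGM against GM, which shares no library with it. At 0 h 5718 genes differed (39.1%), 2873 higher (19.6%) and 2845 lower (19.4%) in SFGM. Of the 3179 genes higher in SFDM, 981 (30.9%) had been higher at 0 h, 783 (24.6%) lower and 1415 (44.5%) not called. Of the 3474 lower genes 919 (26.5%) had been lower, 786 (22.6%) higher and 1769 (50.9%) not called. Both shares of genes called at 0 h, in the same and in the opposite direction, were above those among the 7984 genes not called at 72 h, where 13.9% were higher and 14.3% lower. Calls at both times rest on the same spread estimate for each gene. These groups were not matched for level or precision, so the excess is a description and a link between the times was not tested. The 1900 genes with the same direction at both times were 28.6% of the calls at 72 h and 33.2% of those at 0 h. The 1569 with opposite directions were 23.6% and 27.4%.

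Across the 14637 genes the fitted log2 differences at the 2 times had Pearson's r = 0.225 and Spearman's rho = 0.084. Over the 9269 genes with at least 10 CPM these were 0.113 and 0.007. Genes are not independent replicates, and all libraries were scaled together. In the latter genes the root mean square log2 difference was 0.675 at 72 h and 0.588 at 0 h.

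A direct test of the difference at 72 h against the difference at 0 h called 5856 genes (40.0%), 2787 (19.0%) with a higher and 3069 (21.0%) with a lower value at 72 h, by the same edgeR test. Among the 3184 genes called at 72 h but not at 0 h, 1962 passed it. The other 1222 did not pass it, and when their gap arose is not settled by these tests. Of the 2249 genes called at 0 h but not at 72 h, 1373 passed. Both sets were chosen by calls on the same libraries that enter this test, which favours passing. The numbers passing in them are therefore a description. Of the genes with the same direction at both times, 589 of 981 higher genes and 625 of 919 lower genes did not pass. Over all genes tested 40.0% passed, so a majority that did not pass is not particular to these genes. Calls on the same libraries chose these genes too, and their numbers are likewise a description. Where genes with the same direction passed, 197 higher genes had a wider gap at 72 h and 195 a narrower one. Of the lower genes 169 had a wider gap and 125 a narrower one.

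The genes that changed sides were chosen for opposite signs at the 2 times, which fixes the sign of the difference between the responses, so their levels are a description. The 783 genes lower in SFGM than in GM and higher in SFDM than in DM went from a median of 55.1 CPM in GM to 15.6 in DM, and from 38.8 CPM in SFGM to 26.7 in SFDM. The 786 genes with the opposite change went from 15.2 to 43.7 CPM in the serum-based cultures and from 26.4 to 26.9 CPM in the serum-free ones. The 981 genes higher at both times had medians of 9.20 CPM in GM, 10.6 in DM, 19.4 in SFGM and 23.1 in SFDM, with a log2 gap of 0.93 at the start and 0.87 at the end. The 919 genes lower at both times had gaps of -0.59 and -0.62.

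**Figure D5:**
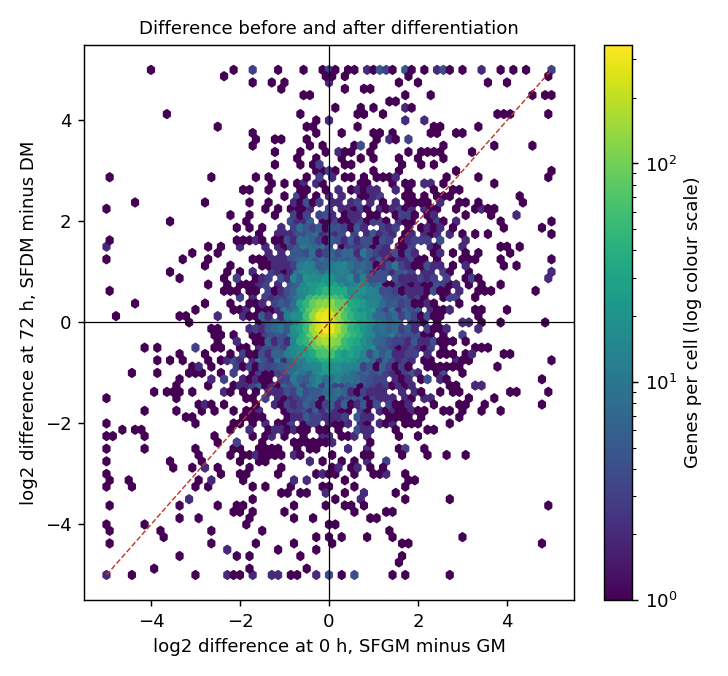
Fitted log2 difference at 72 h (SFDM minus DM) against that at 0 h (SFGM minus GM) for 14637 genes, as a density on a log colour scale; values beyond 5 in either direction are drawn at 5, and the dashed line marks equal differences. The cloud follows the dashed line only weakly (Pearson's r = 0.225), with genes on every side of both zero lines.

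At 0 h the 4 named identifiers differed far less than at 72 h, the time for which they were chosen. ENSBTAG00000053649 was already 2.18-fold higher in SFGM than in GM (log2 difference 1.13, edgeR adjusted p = 6.1e-05). ENSBTAG00000017071 had been 1.49-fold lower in SFGM (log2 difference -0.57, edgeR adjusted p = 0.000831) and changed sides. ENSBTAG00000012034 had a log2 difference of 1.69 at 0 h (edgeR adjusted p = 0.0154), from 9 counts in GM and 29 in SFGM. That call was lost without SFGM replicate C, without GM replicate A, and with all libraries thinned to the smallest total (edgeR adjusted p = 0.163). With only SFGM and GM in the fit the identifier was not tested. ENSBTAG00000015402 had a log2 difference of -0.75 at 0 h (edgeR adjusted p = 0.00753), a call lost without GM replicate C.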

How the data were processed

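Libraries of poly(A) RNA came from a kit that keeps strand and were read to 75 bp, per the labels' protocols. The authors deposited raw counts per Ensembl bovine gene identifier. STAR 2.7, featureCounts and bosTau9 are named in the submitters' processing notes. Neither the strand setting nor the release of the annotation is given in the sources used here, and reads of overlapping or near-identical genes may be split or lost. Of 27607 identifiers 0 matched a symbol in the reference table used here, and no gene list or sequence is reported for that reason.

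Analysis used edgeR 4.0.16 (R 4.3.3). The filter was filterByExpr (minimum count 10, minimum total 15). This kept at least 99.97% of each library's counts. The quasi-likelihood fit took all 18 libraries, TMM scaling and 1 coefficient for each medium, with two-sided contrasts and Benjamini-Hochberg adjustment at 0.05. Standard errors were derived from the fitted log2 difference and the F statistic. CPM uses TMM-scaled totals, except in the numbers of genes detected per library, where it uses the total counts alone. A floor of 3 counts over a group was 0.0436 CPM in DM and 0.0475 in SFDM, which covers counting error only. Counts of replicate pairs differed by more than sampling noise in both end points (chi-square per degree of freedom 3.73 to 32.5). DESeq2 1.42.0, other scalings, filters and designs, and leaving out each library were alternatives.

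The comparison, the limits for groups of genes and the rule for named identifiers (the 2 largest rises and the 2 largest falls with an adjusted p under 0.05, at least 10 CPM in the higher end point and no overlap) were chosen with earlier results of these data known. The groups by 0 h call, the 5000 CPM limit and the interval limit of 1.5-fold were set after the values were seen.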

Additional observations from a re-analysis of the deposited data

Results flagged for a closer look

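The gap between serum-free and serum-based cultures differed between 72 h and 0 h in 5856 genes, by the edgeR quasi-likelihood test of the difference itself. Among the named identifiers, the log2 difference at 72 h minus that at 0 h was 5.31 for ENSBTAG00000053649 and 6.66 for ENSBTAG00000017071 (edgeR adjusted p = 2.1e-09 and 3.71e-14). It was -8.57 for ENSBTAG00000012034 and -6.02 for ENSBTAG00000015402 (edgeR adjusted p = 1.69e-08 and 4.57e-10). The 4 were chosen for the largest differences at 72 h, which all but fixes that they pass this test, so these values are a description. Groups of 3 libraries are too small to test a single library as an outlier.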

How the results depend on the processing

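Leaving out each library in turn gave 5835 to 6475 genes called in SFDM against DM, 2061 to 2107 at least 2-fold, 4825 to 5242 in SFGM against GM, and 5295 to 5784 for the difference between the times. With only SFDM and DM in the fit, 5752 genes were called, against 6653 with all groups. With the replicate letter added as a block to that smaller fit, 3845 were called (1940 higher, 1905 lower). With all groups in the fit the replicate block gave 6427. The deviations gave no sign that the letters pair the SFDM and DM libraries, though 3 values cannot settle it. Same-letter deviations correlated at -0.080, -0.102 and -0.415 across genes for A, B and C, and different-letter values were -0.274 to 0.371. For SFGM and GM the same-letter values were 0.075, 0.104 and 0.225, and different-letter values were -0.175 to 0.115. With only SFGM and GM in the fit, 7022 genes were called without the block and 8547 with it, against 5718. Whether the letters pair the growth-medium libraries is not settled by these values. A stricter filter left 1300 genes at least 2-fold (730 higher, 570 lower) of 11409 tested. Over the other alternatives, thinning to the smallest total included (added after the data were seen), the counts were within 1.5 times those reported. For the named identifiers all 60 values of SFDM against DM and all 84 of the difference between the times kept their direction and stayed below 0.05. Of 58 values for SFGM against GM, 4 lost the call, with an adjusted p of up to 0.163 (edgeR). With genes ranked by their mean over all libraries, the SFDM minus DM gap was 5.33 percentage points for the top 10 and 3.69 for the top 100, against 3.83 and 2.63. At 5 CPM, 121 more genes were detected in SFDM (exact permutation p = 0.1), against 18.3 at 1 CPM, where leaving out 1 library gave -13.3 to 48.2. Leaving out 1 library gave 3.61 to 4.09 points for the top 10 and 2.27 to 3.15 for the top 100.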
